A study of Homo sapiens with 36 samples.

Results

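The GSK-J4 by cisplatin experiment in 2102EP-C1 cells asks which gene expression responses to cisplatin differ when the cells were first treated with GSK-J4. 2102EP-C1 is a cisplatin-resistant derivative of 2102EP, an established human embryonal carcinoma line derived from a testicular germ cell tumor, and the 12 libraries of the experiment, of 36 in the series, came from this line, with 3 in each of 4 arms. The libraries labelled VC were the untreated control, those labelled Cisplatin received 0.5 µM cisplatin for 6 h, those labelled GSK-J4 received 1 µM GSK-J4 for 3 days, and those labelled Combination were pretreated with GSK-J4 and then given cisplatin at the same doses. RNA was harvested 24 h after cisplatin. The other 2 experiments of the series, of 12 libraries each, are used below for comparison. One gave the same 4 treatments to NT2/D1-A4 cells, a cisplatin-resistant derivative of another embryonal carcinoma line, and the other compared 2102EP-C1 lines with shRNAs against KDM6A and KDM6B (sh6A+6B) or with pLKO.1, the vector alone, each left untreated or given cisplatin and none given GSK-J4. All 17035 genes in the deposited table were tested, and the quantity described is the response to cisplatin after pretreatment (Combination minus GSK-J4) minus the response without it (Cisplatin minus VC), called the interaction below and given on the log2 scale of reads scaled to library size (CPM). A negative interaction means that the response after pretreatment lay below the response in unpretreated cells, whatever the sign of either.

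Cisplatin binds to DNA and forms crosslinks between purine bases, which stall replication and transcription and activate the p53 pathway. GSK-J4 is a cell-permeable inhibitor of the JmjC-domain histone demethylases KDM6A and KDM6B, which remove the repressive mark H3K27me3. Embryonal carcinoma cells are the stem cells of nonseminomatous germ cell tumors, and they express the pluripotency network of the early embryo and usually retain wild-type p53.

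The embryonal carcinoma identity of the line was apparent in each arm. Of 11 marker genes, 10 were in the table, and TDGF1 is not analysed here. POU5F1, the pluripotency factor OCT4, had arm means of 9.41, 9.42, 9.48 and 9.47 log2 CPM in VC, Cisplatin, GSK-J4 and Combination, and LIN28A lay between 11.33 and 11.44. Of the 10 markers, 9 had a lower mean in GSK-J4 than in VC (median difference -0.19), with 1 called down, DNMT3B, and 0 called up, against 3.12% and 7.79% of all genes. SOX2 had arm means of 8.35, 8.29, 8.13 and 8.04 log2 CPM and NANOG 8.67, 8.71, 8.43 and 8.42 in the same order of arms. TNFRSF8, which encodes the surface marker CD30, was low in each arm, with means from 1.74 to 2.52 log2 CPM. Among markers of other lineages, 3 of 8 endoderm, 4 of 6 mesoderm, 3 of 7 neural and 3 of 8 trophoblast genes were in the table, and the highest was TFAP2C, with an arm mean of 7.21 log2 CPM in Combination, which germ cell tumors also express. GSK-J4 alone raised 2 of the 3 endoderm, 1 of the 4 mesoderm, 0 of the 3 neural and 2 of the 3 trophoblast genes. It lowered 0 in each list, and 7.79% of all genes were called up. Among these, AFP had means of -3.07 log2 CPM in VC and -1.32 in GSK-J4, and HAND1 of 1.59 and 2.48. The AFP means lie near the lower end of the scale and rest on few reads. In bulk RNA, fewer cells of a type and less RNA per cell cannot be told apart.

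The 12 libraries held between 30250275 and 53645086 counted reads, and the 10 most abundant genes took between 4.13% and 4.44% of the reads in each. The root mean square deviation of a library from its arm mean was 0.134 for the third GSK-J4 library and 0.112 for the first Combination library, against 0.0798 to 0.105 log2 CPM for the other 10 libraries.

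A gene was called when its fold, or for the interaction its ratio of folds, exceeded 1.3 (0.38 on the log2 scale) and its Benjamini-Hochberg adjusted p over all genes was below 0.05 in the two-sided moderated test of limma. The interaction was called for 146 genes, or 0.857% of those tested. It was negative for 113 of them (0.663%) and positive for 33 (0.194%). Of the 12 fits that each left out 1 library, the count ranged from 59 genes without the first GSK-J4 library to 447 without the third. It was 64 without the first Combination library, 258 without the third, 79 and 71 without the first and second VC libraries, 88, 86 and 75 without each Cisplatin library in turn, and 93 without the second GSK-J4 library. When limma was fitted without a trend of the variance on expression level, no gene passed, although 2474 genes had an unadjusted p below 0.05, and limma voom on read counts recovered from the table called 130. The calls therefore rest on the modelling of the variance by expression level, and adjusted p-values of the 44 called genes taken by the naming rule were 0.0631 to 0.293 without it. Of these 44 genes, 18 kept their call in each of the 12 fits that left out a library.

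Without pretreatment, cisplatin altered few genes. Cisplatin against VC called 182 genes (1.07%), 150 up (0.881%) and 32 down (0.188%). After GSK-J4, cisplatin called 379 genes (2.22%), 156 up (0.916%) and 223 down (1.31%). These counts share a spread estimate over the 4 arms, and the contrast between them depended on it. With only the 6 libraries of each comparison fitted, 272 genes were called without pretreatment, 209 up and 63 down. After GSK-J4 such a fit called 283, 127 up and 156 down. GSK-J4 alone called 1858 genes (10.9%). The count after GSK-J4 was 164 without the first Combination library, 242 without the second GSK-J4 library and 725 without the third. The numbers up and down after GSK-J4 were 143 and 136 when a trend on transcript length and GC content was removed, 138 and 129 when the replicate number was also a block, and 132 each without the first GSK-J4 library. The count without pretreatment was 118 without the first VC library and 117 without the second Cisplatin library.

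The 146 interaction genes were sorted by which of the 2 responses was itself called. A response was lost for 26 genes, which were called for cisplatin alone and not after GSK-J4. Of these, 15 had a fall in unpretreated cells that was no longer called, and 11 had a rise that was no longer called. A response was gained for 55 genes, of which 53 fell and 2 rose with cisplatin after GSK-J4 while the response without it was not called. For the remaining 65 genes, 49 with a negative and 16 with a positive interaction, the responses differed from each other while neither was called on its own. No gene was called in opposite directions by the 2 responses, and none was called in the same direction with a called difference in size. These class sizes moved with single libraries. The gained class held 17 genes without the first Combination library, 35 and 24 without the first and second VC libraries, 34, 33 and 26 without each Cisplatin library in turn, and 21 and 31 without the first and second GSK-J4 libraries, but 219 without the third GSK-J4 and 134 without the third Combination library. The class called in neither response held 28 without the first Combination library, 28 and 26 without the first and second VC libraries, 33, 36 and 34 without each Cisplatin library, 21 and 42 without the first and second GSK-J4 libraries, 185 without the third and 99 without the third Combination library. The lost class held 15 without the first VC or the third Cisplatin library, 17 without the second Cisplatin, the first GSK-J4 or the second Combination library, and 40 without the third GSK-J4 library. The 61 genes that both responses called moved in the same direction in each case, 60 of them up. They made up 33.5% of the genes called for cisplatin alone and 16.1% of those called after GSK-J4. The interaction was called for 0 of them by limma or by voom, against 0.857% of all genes by limma. An unadjusted p below 0.05 in limma was found for 3, against 2999 of all 17035 genes. The 61 were chosen by the same 2 responses that make up the interaction, so that this count is no test of equal responses.

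The typical interaction gene had small responses of opposite sign. Among the 113 genes with a negative interaction, the median response to cisplatin was 0.14 without and -0.37 with pretreatment, and the median interaction was -0.51. Among the 33 with a positive interaction, these medians were -0.41, 0.23 and 0.55. The 2 responses had opposite signs for 136 of the 146 genes, or 93.2%, against 42.9% of all genes, which describes how the selection works and is no test. GSK-J4 alone raised 13 and lowered 5 of the 113 genes, and raised 8 and lowered 6 of the 33, against 7.79% of all genes called up and 3.12% called down.

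**Figure D1:**
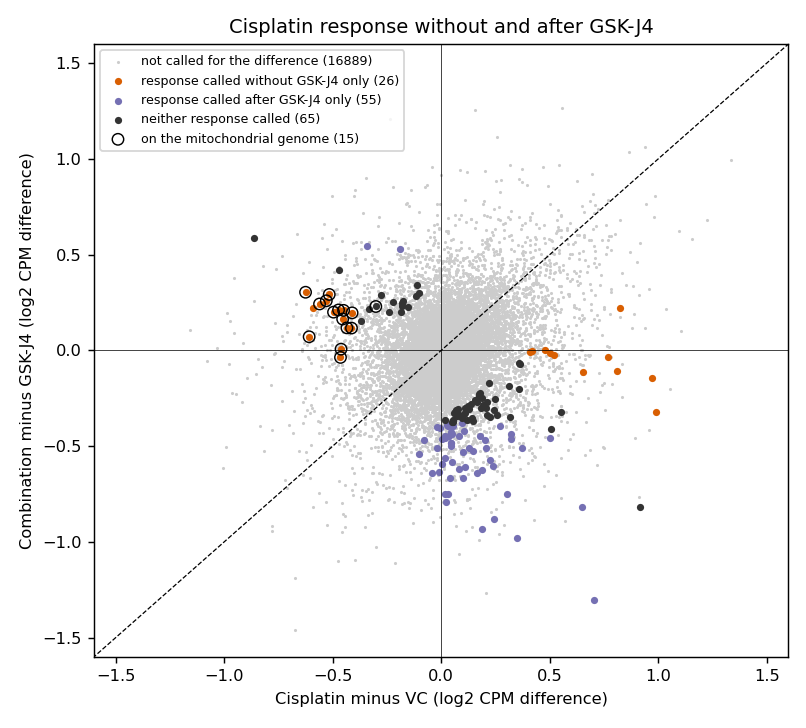
Response to cisplatin after GSK-J4 (vertical axis, log2 CPM difference) against the response without it (horizontal axis, log2 CPM difference) for each of 17035 genes, with the 146 genes called for the interaction coloured by whether the response was lost, gained or called in neither arm, a dashed line of equal response, and rings around the 15 called mitochondrial genes. The called genes lie off the line of equal response, and the ringed genes lie to the left, at negative responses without GSK-J4.

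Of the 15 lost falls, 14 were transcripts of the mitochondrial genome, and the other was INHBE, described later. This circular genome is transcribed in the organelle from both of its strands as long precursors, and it encodes 13 subunits of the respiratory chain and ATP synthase, the 2 mitochondrial rRNAs and a set of tRNAs. Of the 32 genes that fell with cisplatin alone, 15 were mitochondrially encoded. Of the 17 mitochondrially encoded genes in the table, 15 were called for the interaction, all with a positive sign. The exceptions were ND3, at 0.34 ± 0.10 (adjusted p 0.0544), and the tRNA gene TRNC, at 0.32 ± 0.36 (adjusted p 0.691).

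All 13 protein-coding mitochondrial genes fell with cisplatin alone, with log2 differences of -0.61 to -0.41 (median -0.46). In each of the 13, all 3 Cisplatin libraries lay below all 3 VC libraries, against 14.1% of all genes. After GSK-J4 the response of the same genes ranged from -0.11 to 0.29 (median 0.20), and 0 of 13 were called by limma, with an unadjusted p below 0.05 for 10. In 10 of 13 genes all 3 Combination libraries lay above all 3 GSK-J4 libraries, against 13.7% of all genes. The interaction therefore ranged from 0.34 to 0.81 (median 0.66), with 12 of 13 called. These transcripts come from shared long precursors and were measured in the same libraries, so that the 13 genes are not 13 independent observations.

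ND1 (chrMT:3307-4262, GRCh38.p14) encodes a core membrane subunit of respiratory complex I. Its level was 9.90, 9.95 and 10.09 log2 CPM in VC, 9.33, 9.56 and 9.49 in Cisplatin, 10.18, 10.18 and 10.32 in GSK-J4 and 10.62, 10.45 and 10.48 in Combination. The 4 arms did not overlap, with Cisplatin lowest and Combination highest. Its response was -0.52 ± 0.05 (SE, n = 3 per arm) without pretreatment and 0.29 ± 0.05 with it, and the interaction was 0.81 ± 0.07 (limma adjusted p 3.27e-07).

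CYTB (chrMT:14747-15887) encodes cytochrome b of complex III. It measured 8.95, 8.97 and 9.17 log2 CPM in VC, 8.44, 8.62 and 8.60 in Cisplatin, 9.02, 9.05 and 9.12 in GSK-J4 and 9.29, 9.22 and 9.31 in Combination. VC and GSK-J4 overlapped, all Cisplatin libraries lay below both, and all Combination libraries lay above both. The interaction was 0.68 ± 0.07 (limma adjusted p 9.2e-07).

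Complex I subunits ND2 and ND4 had interactions of 0.79 ± 0.08 and 0.66 ± 0.07. ATP6 and ATP8, the mitochondrially encoded subunits of ATP synthase, share part of their sequence on the genome, and their interactions of 0.70 ± 0.08 and 0.80 ± 0.09 are not independent. Among the cytochrome c oxidase genes, the level already differed with GSK-J4 alone, where COX2 fell by 0.42 and COX3 fell by 0.55 with GSK-J4 alone, whereas ND1 and ND2 had differences of 0.25 and 0.35. Cisplatin after GSK-J4 then gave 0.07 ± 0.05 for COX2 and 0.01 ± 0.05 for COX3, so that these genes did not return to the VC level. ND6, the only protein-coding gene read from the other strand, had its lowest values in Cisplatin too. It measured 7.80, 7.76 and 8.001 log2 CPM in VC, 7.32, 7.49 and 7.45 in Cisplatin, 7.85, 7.82 and 7.87 in GSK-J4 and 7.94, 7.94 and 8.01 in Combination. Its interaction was 0.55 ± 0.07 (limma adjusted p 9.89e-06). Because the strand setting of the counting is not given in the sources used here, reads of ND6 and of the transcript opposite to it cannot be told apart.

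The 2 mitochondrial rRNAs were also called, RNR1 at 0.93 ± 0.15 (limma adjusted p 0.00122) and RNR2 at 0.53 ± 0.08 (adjusted p 0.000402). RNR1 levels were uneven among VC libraries, at 7.73, 7.01 and 7.06 log2 CPM, against 6.75, 6.71 and 6.46 in Cisplatin, 7.65, 7.74 and 7.73 in GSK-J4 and 8.17, 7.88 and 7.98 in Combination. The library kit selects polyadenylated RNA, so rRNA levels in these data need not follow the total rRNA. The median interaction of the 13 protein-coding genes was 0.58 to 0.70 when any 1 library was left out, with 12 or 13 called each time, and 0.68 with 12 called when the first Combination and the third GSK-J4 libraries were both left out.

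Nuclear genes for the same organelle had medians close to that of all genes. The 78 nuclear-encoded respiratory chain subunits had a median interaction of 0.02, and the 76 mitochondrial ribosomal proteins one of 0.06, against -0.00 over all genes. In each of these lists 0 were called by limma or by voom, against 0.857% of all genes by limma. In limma, 12 of the 78 and 18 of the 76 had an unadjusted p below 0.05, against 2999 of all 17035 genes. With 78 and 76 genes, 0 calls lie near the share over all genes. The count is not read as a result about nuclear genes for the organelle.

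**Figure D2:**
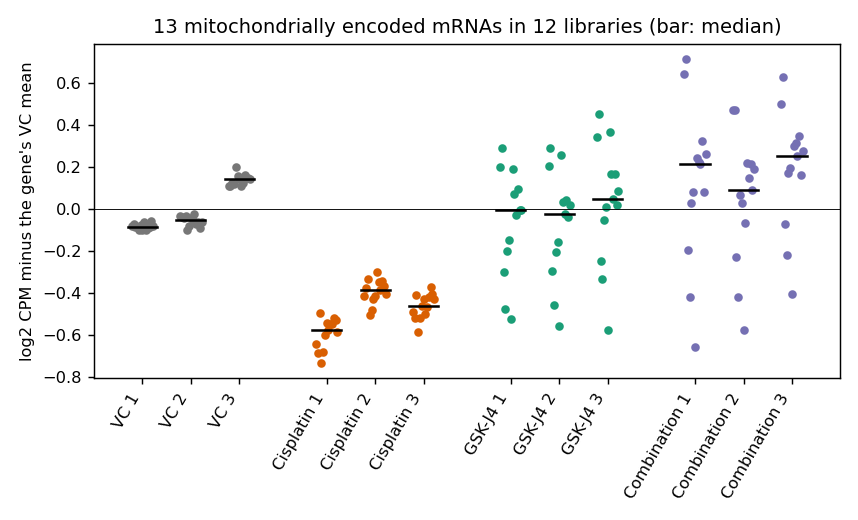
Levels of the 13 mitochondrially encoded mRNAs in each of the 12 libraries, as log2 CPM minus the gene's VC mean (vertical axis), with 1 point per gene and a bar at the median of each library. The points of the 3 Cisplatin libraries lie below 0, and those of GSK-J4 spread on both sides of 0, COX2 and COX3 being the lowest.

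Genes of cholesterol and fatty acid synthesis formed one nuclear group with negative interactions. In most cells these genes are driven together by the sterol regulatory element-binding proteins SREBP1 and SREBP2, which are held in the endoplasmic reticulum by INSIG proteins when sterols are plentiful. All 33 listed genes were in the table, and the interaction was negative in 33 of 33, from -0.70 to -0.10 (median -0.33), with 10 called, against 0.663% of all genes called negative. Cisplatin alone called 0 of the 33 (median response 0.07, with an unadjusted p below 0.05 in limma for 7), and cisplatin after GSK-J4 lowered 7 (median -0.23), against 1.31% of all genes called down. All 3 Combination libraries lay below all 3 GSK-J4 libraries for 22 of the 33 genes, or 66.7%, against 12.4% of all genes.

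Promoter sequences of 2 called lipid genes are shown because the CCAAT box, which binds NF-Y, a common partner of SREBPs, was frequent in the list. Each is the 250 bases before the RefSeq start on GRCh38.p14, written 5′ to 3′ on the gene's strand, with each CCAAT or its reverse complement ATTGG in capitals. HMGCS1, which makes HMG-CoA from acetyl units, lies on the minus strand (chr5:43313413-43313662), and INSIG1 on the plus strand (chr7:155297628-155297877).
HMGCS1: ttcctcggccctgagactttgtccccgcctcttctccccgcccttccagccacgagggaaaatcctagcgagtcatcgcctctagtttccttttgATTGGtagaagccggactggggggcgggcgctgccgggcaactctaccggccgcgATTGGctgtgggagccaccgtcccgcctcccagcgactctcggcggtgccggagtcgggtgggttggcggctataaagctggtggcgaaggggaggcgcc
INSIG1: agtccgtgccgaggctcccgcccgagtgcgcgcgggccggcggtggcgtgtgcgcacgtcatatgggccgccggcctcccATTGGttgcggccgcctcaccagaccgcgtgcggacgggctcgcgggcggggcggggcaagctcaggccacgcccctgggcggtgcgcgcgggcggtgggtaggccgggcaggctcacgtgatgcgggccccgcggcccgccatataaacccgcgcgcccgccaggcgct
CCAAT on either strand occurred in the 300-base window around the start in 18 of 26 lipid genes with a listed promoter (69.2%), in 6 of the 7 called ones (85.7%), and in 36.4% of the 12821 tested genes with a listed promoter. It also occurred in 50% of the genes called negative, 50% of those called positive and 57.1% of the ATF4-CHOP list described later. Of the motifs searched beforehand, CACGTG and TGACGT each occurred in 3 of the 26 lipid promoters (11.5%). The shares over all were 9.57% and 11.0%. The ATF4 and CHOP composite element, the AP-1 site and heat shock units occurred in 0 of the 26. The CCAAT box and the hypoxia motif described later were chosen after the called groups had been seen, and a match is a description of letters only.

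FASN (chr17:82078338-82098236), the fatty acid synthase, had the smallest adjusted p of the list. Its level was 8.49, 8.55 and 8.57 log2 CPM in VC, 8.56, 8.64 and 8.66 in Cisplatin, 8.43, 8.46 and 8.19 in GSK-J4 and 7.62, 7.67 and 7.93 in Combination. The Combination libraries lay below all others, and the other 3 arms were close together except for the third GSK-J4 library. Its response was 0.08 ± 0.06 without pretreatment and -0.62 ± 0.06 with it, an interaction of -0.70 ± 0.08 (limma adjusted p 1.15e-05).

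The same pattern ran through the cholesterol branch. DHCR7, which performs the last step of cholesterol synthesis, measured 6.33, 6.30 and 6.40 log2 CPM in VC, 6.42, 6.36 and 6.38 in Cisplatin, 6.25, 6.33 and 6.10 in GSK-J4 and 5.56, 5.82 and 5.84 in Combination, with an interaction of -0.53 ± 0.08 (limma adjusted p 0.000508). INSIG1, whose promoter is shown above, had 5.59, 5.98 and 6.15 in Combination against 6.38 to 6.40 in GSK-J4, and an interaction of -0.53 ± 0.11 (adjusted p 0.00879). For these genes the first Combination library was the lowest. HMGCS1, whose promoter is also shown, had an interaction of -0.41 ± 0.10 (adjusted p 0.0279). Called members also included SCD, which makes monounsaturated fatty acids, FADS2, a fatty acid desaturase, and the sterol pathway enzymes LSS and MVD. ACACA and ACLY, which supply malonyl-CoA and acetyl-CoA for fatty acid synthesis, had interactions of -0.35 ± 0.06 and -0.34 ± 0.06 with adjusted p of 0.000809 and 0.00108, under the limit on fold.

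Averaged over the 33 genes as a deviation from each gene's own mean, the list lay at 0.05 to 0.14 log2 units in VC, 0.15 to 0.18 in Cisplatin, -0.08 to 0.05 in GSK-J4, and -0.44, -0.24 and -0.12 in the Combination libraries in order of number. The arms did not overlap between GSK-J4 and Combination, but the Combination libraries were spread widely. Without the first Combination library the median interaction was -0.23 with 2 genes called, FASN and DHCR7. The other 8 members were then negative without a call, among them INSIG1, SCD and HMGCS1. Without the third it was -0.39 with 18 called. Without the third GSK-J4 library 15 were called, and without the first GSK-J4, the second VC or the first Cisplatin library 6 in each case. With the first Combination and the third GSK-J4 libraries both left out, the median was -0.28 with 7 called.

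Genes of the hypoxia response and glycolysis formed another group. The hypoxia-inducible factors HIF1A and EPAS1 raise glucose uptake, glycolytic enzymes and lactate export when oxygen is short, and many stem-like cells keep glycolysis active in oxygen. Of 32 listed genes 30 were in the table, and the interaction was negative in 29 of 30, from -0.84 to 0.19 (median -0.30), with 11 called, each negative, against 0.663% of all genes. Cisplatin alone called 1 member, ADM, which rose by 0.55 ± 0.07 (median of the list 0.08), and cisplatin after GSK-J4 lowered 6 (median -0.24), against 1.31% of all genes called down. All 3 Combination libraries lay below all 3 GSK-J4 libraries for 21 of the 30 genes (70.0% against 12.4% of all genes). The single positive member was VEGFA, the vascular growth factor, at 0.19 ± 0.07 (adjusted p 0.17), which GSK-J4 alone raised by 0.92 ± 0.05.

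The promoters of ALDOC and BNIP3, 2 called members, are shown for the letters ACGTG, the core of the hypoxia response element. Capitals mark ACGTG or its reverse complement CACGT, and where both overlap the capitals run over CACGTG. Both lie on the minus strand, ALDOC at chr17:28576896-28577145 and BNIP3 at chr10:131981924-131982173, and each is the 250 bases before the RefSeq start on GRCh38.p14.
ALDOC: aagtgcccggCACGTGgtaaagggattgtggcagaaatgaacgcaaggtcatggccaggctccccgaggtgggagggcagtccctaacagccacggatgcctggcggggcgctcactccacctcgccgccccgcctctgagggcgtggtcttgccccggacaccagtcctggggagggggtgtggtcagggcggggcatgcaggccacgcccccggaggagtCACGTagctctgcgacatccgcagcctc
BNIP3: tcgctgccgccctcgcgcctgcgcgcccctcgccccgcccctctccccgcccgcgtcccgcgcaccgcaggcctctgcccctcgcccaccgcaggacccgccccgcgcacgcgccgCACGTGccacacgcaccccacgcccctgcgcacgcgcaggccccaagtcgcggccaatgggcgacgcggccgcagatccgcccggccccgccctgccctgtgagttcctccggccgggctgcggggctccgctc
ACGTG on either strand occurred in 12 of 26 hypoxia and glycolysis genes with a listed promoter (46.2%), in 7 of the 11 called ones (63.6%), and in 25.7% of all tested genes with one. The palindrome CACGTG, a motif searched before these were added and one that contains ACGTG, occurred in 4 of the 26 (15.4%), against 9.57% of all. TGACGT, also searched beforehand, occurred in 4 of the 26 too (15.4%), against 11.0% of all.

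Members acting at successive steps of glucose use shared the direction. SLC2A1 (chr1:42925353-42958868), the glucose importer GLUT1, had levels of 8.63, 8.51 and 8.68 log2 CPM in VC, 8.83, 8.80 and 8.78 in Cisplatin, 8.64, 8.71 and 8.61 in GSK-J4 and 8.19, 8.42 and 8.49 in Combination. Its Cisplatin libraries were the highest and its Combination libraries the lowest of the 4 arms, and the interaction was -0.48 ± 0.07 (limma adjusted p 0.000422). HK2, the hexokinase that traps glucose in the cell, had 6.97, 7.23 and 7.35 in Combination while the other 9 libraries lay between 7.54 and 7.66, and its interaction was -0.41 ± 0.07 (adjusted p 0.00303). A pseudogene of HK2, HK2P1, was called in the same direction and may share reads with it.

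PFKFB3 and PFKFB4 set the level of fructose 2,6-bisphosphate, the activator of phosphofructokinase. Their interactions were -0.57 ± 0.10 (limma adjusted p 0.00206) and -0.84 ± 0.20 (adjusted p 0.0274). LDHA, which converts pyruvate to lactate, measured 11.11, 11.01 and 11.15 log2 CPM in VC, 11.16, 11.12 and 11.13 in Cisplatin, 10.79, 10.78 and 10.82 in GSK-J4 and 9.91, 10.42 and 10.57 in Combination, and its interaction was -0.54 ± 0.12 (adjusted p 0.0143). The first Combination library of LDHA was the lowest of all by a wide gap.

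The lactate exporter SLC16A3 (MCT4), which was not on the list, had one of the largest negative interactions in the experiment, at -1.12 ± 0.23 (limma adjusted p 0.0118). Its levels were 3.91, 3.84 and 4.37 log2 CPM in VC, 4.31, 4.14 and 4.23 in Cisplatin, 4.11, 4.298 and 3.75 in GSK-J4 and 2.57, 3.12 and 3.68 in Combination. Every Combination library lay below every other library, by a narrow margin for the third. BNIP3, a mitophagy receptor, had an interaction of -0.53 ± 0.12 (adjusted p 0.0157), the glycolytic enzyme PGK1 one of -0.38 ± 0.08 (adjusted p 0.0146) and the aldolase ALDOC one of -0.48 ± 0.10 (adjusted p 0.0147). The remaining called members were INSIG2, the collagen prolyl hydroxylase P4HA1 and PDK1, which restrains the entry of pyruvate into mitochondria.

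Averaged over the 30 genes, the list lay at -0.29, -0.08 and -0.04 in the Combination libraries in order of number and at 0.04 to 0.10 in GSK-J4, relative to each gene's own mean. Without the first Combination library the median interaction was -0.23 with 3 genes called, SLC2A1, PFKFB3 and PFKFB4. HK2 and LDHA were then at -0.31 and -0.35, under the limit on fold. Without the second VC library 3 were called, LDHA not among them (limma adjusted p 0.0509), without the first GSK-J4, the first Cisplatin or the second Cisplatin library 6, without the second GSK-J4 or the first VC library 7, and with the first Combination and the third GSK-J4 libraries both left out 4. PFKFB4 kept its call in 5 of the 12 fits that left out a library (adjusted p 0.0608 to 0.101 in the other 7).

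**Figure D3:**
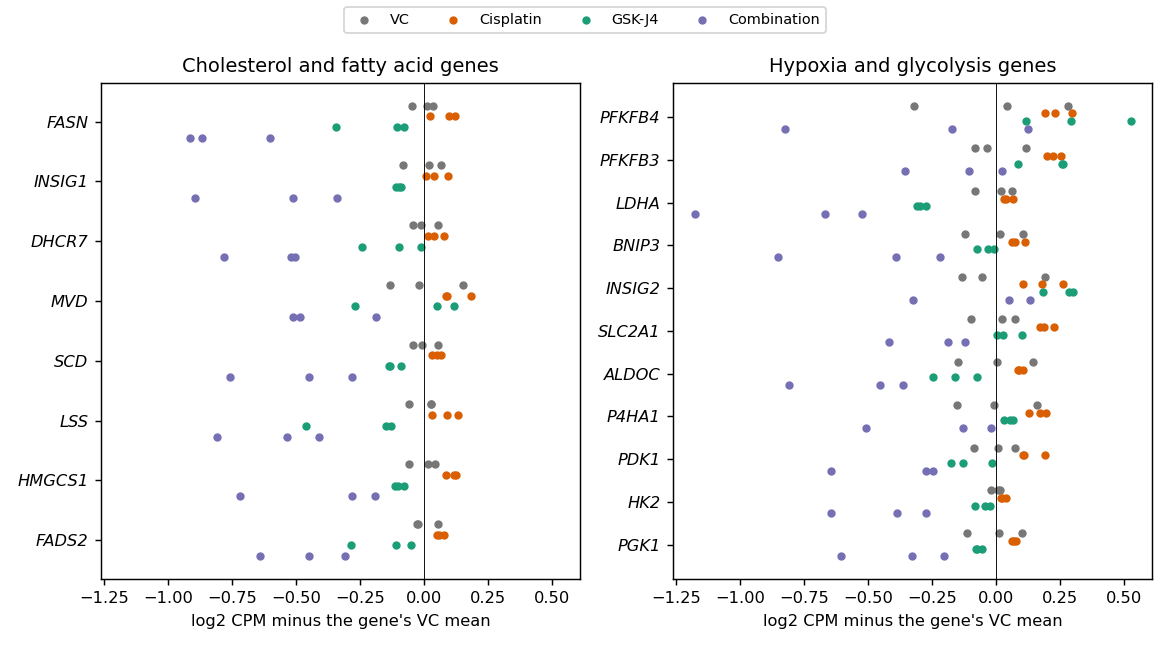
Levels of 8 of the 10 called genes of cholesterol and fatty acid synthesis (left) and the 11 called genes of hypoxia response and glycolysis (right), as log2 CPM minus the gene's VC mean (horizontal axis), with 1 point per library coloured by arm. For FASN, HK2 and LDHA the 3 Combination points lie to the left of all others, while for MVD, LSS, INSIG2, PFKFB3, PFKFB4 and P4HA1 they overlap another arm.

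The nuclear genes with a positive interaction included several of the amino acid and integrated stress response. In this response, kinases that sense amino acid shortage, endoplasmic reticulum stress or heme deficit lead to translation of ATF4, which raises amino acid transporters and biosynthetic enzymes together with the factors CHOP (DDIT3) and CEBPG. GSK-J4 alone raised 23 of the 26 measured genes of the list (median 1.03), against 7.79% of all genes called up, and DDIT3 rose by 2.31 ± 0.09. The interaction concerns what cisplatin added to that state. Its median over the list was 0.13, positive in 21 of 26 genes, with 2 called, CEBPG and INHBE, against 0.194% of all genes called positive. The response to cisplatin had a median of 0.02 without pretreatment (11 negative, 15 positive), with 2 called up and 1 down. With pretreatment the median was 0.19 (26 of 26 positive), with 2 called up and 0 down. Of all genes, 0.881% were called up without pretreatment and 0.916% with it.

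SLC7A11, which imports cystine for glutathione synthesis, had the smallest adjusted p of the group. It measured 6.26, 6.31 and 6.29 log2 CPM in VC, 6.16, 6.19 and 6.18 in Cisplatin, 7.21, 7.26 and 7.401 in GSK-J4 and 7.80, 7.53 and 7.57 in Combination. The interaction was 0.45 ± 0.07 (limma adjusted p 0.000809). CEBPG had 5.65 to 5.67 in VC, 5.44 to 5.52 in Cisplatin, 6.64 to 6.73 in GSK-J4 and 7.16, 6.84 and 6.84 in Combination, and an interaction of 0.43 ± 0.08 (adjusted p 0.00303).

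Both genes were lowest in Cisplatin and highest in Combination, with no overlap between the 4 arms. The neutral amino acid transporter SLC38A1 had an interaction of 0.40 ± 0.08 (limma adjusted p 0.00618). SOCS2, an inhibitor of growth hormone and cytokine signaling, had a response of -0.37 ± 0.07 to cisplatin alone, just under the limit on fold, and an interaction of 0.53 ± 0.10 (adjusted p 0.00529). PCK2, the mitochondrial phosphoenolpyruvate carboxykinase, had an interaction of 0.56 ± 0.13 (adjusted p 0.0188), and SNHG32, a small nucleolar RNA host gene, had one of 0.43 ± 0.10 (adjusted p 0.0169). SOCS2 and PCK2 were named after their values were seen.

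In these genes the first Combination library was the highest of its arm, the reverse of the lipid and hypoxia genes. Without it the median of the stress list was 0.06 with 0 called, and SLC7A11, CEBPG and SLC38A1 dropped to 0.37, 0.33 and 0.29, under the limit on fold, with adjusted p of 0.000395, 0.00103 and 0.00218. SLC38A1 also fell under the limit on fold without the third Cisplatin or the second GSK-J4 library. With the trend on transcript length and GC content removed, CEBPG and SLC38A1 were at 0.36 and 0.37, again under the limit. INHBE, a secreted activin subunit, fell with cisplatin alone, at -0.59 ± 0.15, and had an interaction of 0.81 ± 0.21 (limma adjusted p 0.036). This call held without the third GSK-J4 or the third Combination library, and in no other of the 12 fits (adjusted p 0.0502 to 0.121), nor with voom (0.102). SNHG32 lost its call without the third VC, the first Cisplatin or the first library of GSK-J4 or of Combination (adjusted p 0.0504 to 0.0705).

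Among NODAL pathway genes, LEFTY1 and LEFTY2 were called. NODAL is a secreted factor that maintains pluripotency, and it induces its own extracellular inhibitors LEFTY1 and LEFTY2. LEFTY1 measured 5.18, 4.91 and 5.01 log2 CPM in VC, 5.21, 5.06 and 5.16 in Cisplatin, 5.49, 5.55 and 5.29 in GSK-J4 and 4.60, 4.95 and 4.95 in Combination. GSK-J4 alone raised it by 0.41 ± 0.08, and cisplatin after GSK-J4 lowered it by 0.61 ± 0.08, while its response to cisplatin alone was positive, at 0.11 ± 0.08, and not called. The interaction was -0.72 ± 0.11 for LEFTY1 (limma adjusted p 0.000505) and -0.79 ± 0.14 for LEFTY2 (adjusted p 0.00396), and both genes, which lie near each other on chromosome 1 and are close relatives in sequence, kept their calls without any 1 library. NODAL itself lay between 6.80 and 7.01 log2 CPM in each of the 12 libraries, with an interaction of -0.14 ± 0.05 (adjusted p 0.105). CER1, another secreted inhibitor of NODAL and BMP, lost a rise: it rose by 0.82 ± 0.11 with cisplatin alone, and the response after GSK-J4 was 0.22 ± 0.11 on a level that GSK-J4 had itself raised by 1.56. Its interaction of -0.60 ± 0.15 (adjusted p 0.036) was lost without the second or the third VC library, any Cisplatin library or the first or second Combination library (adjusted p 0.0525 to 0.105), and with the replicate number as a block (0.0536).

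Other rises with cisplatin were absent after GSK-J4. FBN2 (chr5:128257909-128538245), which encodes the extracellular microfibril protein fibrillin-2, measured 5.44, 5.47 and 5.58 log2 CPM in VC, 5.89, 6.11 and 6.05 in Cisplatin, 5.63, 5.51 and 5.70 in GSK-J4 and 5.54, 5.50 and 5.72 in Combination. The 3 Cisplatin libraries stood above the other 9, and the interaction was -0.55 ± 0.08 (limma adjusted p 0.000505), called without any 1 library. FOSL2, an AP-1 subunit, rose by 0.77 ± 0.13 with cisplatin alone and had a response of -0.04 ± 0.13 after GSK-J4, which had raised it by 1.501. FOXP2, a forkhead transcription factor, and LGR6, a receptor for R-spondins, rose by 0.97 ± 0.20 and 0.81 ± 0.18 and had responses of -0.14 and -0.11 after GSK-J4. BHLHE40, a clock-related repressor, rose by 0.66 ± 0.13, with VC levels spread from 2.85 to 3.83.

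These 4 calls were less stable than that of FBN2. FOSL2 and FOXP2 each lost it without the first or the third VC, the second or the third Cisplatin or the first GSK-J4 library, and also without the second Combination library for FOSL2 and the first for FOXP2 (adjusted p 0.0503 to 0.0846 and 0.0592 to 0.106). BHLHE40 kept its call only without the third VC, the third GSK-J4 or the third Combination library (0.0506 to 0.0714 in the other 9 fits), and LGR6 only without the second Cisplatin, the third GSK-J4 or the third Combination library (0.0611 to 0.141), and LGR6 lost it with voom (0.062) and with the trend on length and GC content removed (0.0704). TTN, the giant muscle protein titin, and RTL9, a retrotransposon-derived gene, rose by 0.50 and 0.48 with cisplatin alone and had responses of -0.01 and 0.00 after GSK-J4, and each held in 7 of the 12 fits. TTN was lost without the first VC, the second or the third Cisplatin, the first GSK-J4 or the second Combination library (adjusted p 0.0538 to 0.0739), and RTL9 without the first or the third VC, the first or second Cisplatin or the first Combination library (0.0516 to 0.0679). When a trend on transcript length and GC content was removed, the interaction of TTN moved from -0.52 to -0.21 (adjusted p 0.164).

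Several of the larger negative interactions belonged to genes of low level. MAST1, a microtubule-associated kinase, had levels of 0.12, 0.19 and 0.69 log2 CPM in VC, 0.89, 0.66 and 0.50 in Cisplatin, 0.64, 0.60 and 0.29 in GSK-J4 and -0.57, -0.68 and -0.17 in Combination. The interaction of MAST1 was -1.33 ± 0.28 (limma adjusted p 0.0125) and was called without any 1 library. PTPN5, a neuronal phosphatase, RFPL4B, an RFPL family gene, CXCR4, a chemokine receptor, DMTN, an actin-bundling protein, and SUSD3 had interactions of -1.06, -0.96, -0.92, -0.88 and -0.87. DMTN lost its call without the first GSK-J4 library (limma adjusted p 0.0504), and RFPL4B without the first or second VC, the second Cisplatin or the first GSK-J4 library (0.0516 to 0.0681). CXCR4, PTPN5 and SUSD3 kept theirs only without the third VC, the third GSK-J4 or the third Combination library, and CXCR4 also without the second Combination library (0.0585 to 0.109, 0.0523 to 0.111 and 0.0557 to 0.142 in the other fits). SUSD3 also lost its call with voom (0.0522) and with the replicate number as a block (0.0536). On the deposited scale, to which 3 reads were added per gene and library, folds of such genes are understated.

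ADAMTS1, a secreted metalloproteinase, was higher in level and steadier. It measured 5.74, 5.74 and 5.88 log2 CPM in VC, 5.97, 5.98 and 6.03 in Cisplatin, 5.64, 5.70 and 5.67 in GSK-J4 and 4.84, 5.30 and 5.34 in Combination, and its interaction was -0.72 ± 0.11 (limma adjusted p 0.000505). APOB, the structural protein of lipoproteins, had an interaction of -0.66 ± 0.12 (adjusted p 0.00219). Both held without any 1 library. ITGA5, the fibronectin receptor subunit, had an interaction of -0.51 ± 0.11 (adjusted p 0.0151), and lost its call without the second VC, the second Cisplatin or the first GSK-J4 library. The receptor KIT, which marks germ cells, lay at 3.19 to 3.23 in GSK-J4 and 2.46 to 2.79 in Combination, and the ephrin receptors EPHB2 and EPHB3 had interactions of -0.60 ± 0.13 and -0.63 ± 0.17. KIT, EPHB2 and EPHB3 were chosen after their values were seen.

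Few nuclear genes gained a rise. SETDB2, a histone methyltransferase of the SETDB family, rose by 0.54 ± 0.17 after GSK-J4 and had a response of -0.34 ± 0.17 without it. Its interaction of 0.88 ± 0.24 (limma adjusted p 0.0476) held only without the third GSK-J4 or the third Combination library (0.0564 to 0.145 in the other 10 fits), and not with voom (0.0569), with the replicate number as a block (0.0666), with the trend on length and GC content removed (0.0571), with scaling to library size only or with a prior count of 0.5. The other gained rise was LOC105376166, an uncharacterized locus and 1 of the 8 LOC genes or pseudogenes among the 146, at 0.72 ± 0.20 (adjusted p 0.0485). Its call held only without the third GSK-J4 library (0.0611 to 0.128 in the other 11 fits), and not with the block (0.0568) or with scaling to library size only. The zinc finger genes ZNF527 and ZNF582 had interactions of 0.40 ± 0.09 and 0.44 ± 0.11, and they were the 2 called of 499 measured zinc finger genes. Of all genes, 0.194% were called positive and 0.857% in either direction, so that this count is not read as a result about zinc finger genes. ZNF527 held in 6 of the 12 fits (limma adjusted p 0.0577 to 0.0849 in the other 6), lost without the second or the third VC or Cisplatin, the first library of GSK-J4 or of Combination, and ZNF582 only without the third VC, the third GSK-J4 or the third Combination library (0.0506 to 0.123 in the other 9). With the trend on length and GC content removed they were at 0.33 and 0.38, under the limit on fold.

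No measured member of the p53 target lists was called for the interaction. p53 induces genes for arrest, apoptosis and repair after DNA damage, and the study examined these targets. In the lists of p53 feedback and arrest targets, apoptosis and death receptor targets, and repair and metabolism targets, 20, 20 and 32 genes were measured. The interaction was called for 0 in each by limma or by voom, against 0.857% of all genes by limma. An unadjusted p below 0.05 in limma was found for 3, 5 and 7, against 2999 of all 17035 genes. In lists of this size 0 calls lie near the share over all genes, and the count is not read as a result about p53 targets. The median response to cisplatin was 0.30, 0.21 and 0.21 without pretreatment and 0.31, 0.18 and 0.19 with it. GSK-J4 alone raised 10 of 20, 9 of 20 and 10 of 32 genes of these lists, against 7.79% of all genes called up. The medians for GSK-J4 alone were 0.42, 0.35 and 0.28. In its GSK-J4 experiments the study compared each treatment with untreated cells, a comparison that includes this rise, whereas the interaction does not. For the knockdown it also compared sh6A+6B cells given cisplatin with untreated sh6A+6B cells. CDKN1A, the cell cycle inhibitor p21, had 4.37 to 4.38 log2 CPM in VC, 4.81 to 4.83 in Cisplatin, 5.18 to 5.39 in GSK-J4 and 5.63 to 5.82 in Combination. Both cisplatin arms lay above their own controls, and the interaction was -0.05 (adjusted p 0.774).

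Interactions of other p53 targets that the study named were 0.15 for BTG2 (adjusted p 0.541), 0.08 for FAS (0.766), 0.02 for SESN1 (0.908) and 0.02 for DRAM1 (0.936). That of PMAIP1, the apoptosis activator NOXA, was 0.20 (0.0919). A p that misses the threshold does not show that the responses were alike. Among chromatin genes named by the study, the interaction was -0.07 for KDM6A and -0.08 for KDM6B, the targets of GSK-J4. SMARCA4, the SWI/SNF ATPase, had an interaction of -0.16 (limma adjusted p 0.0381), under the limit on fold, and DNMT3B, the de novo DNA methyltransferase of embryonal carcinoma, one of -0.19 (adjusted p 0.0587). DNMT3B measured 11.68 to 11.76 log2 CPM in VC, 11.56 to 11.58 in Cisplatin, 11.27 to 11.30 in GSK-J4 and 10.81 to 11.03 in Combination. ANXA1, an annexin, had an interaction of 0.07 (adjusted p 0.717).

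**Figure D4:**
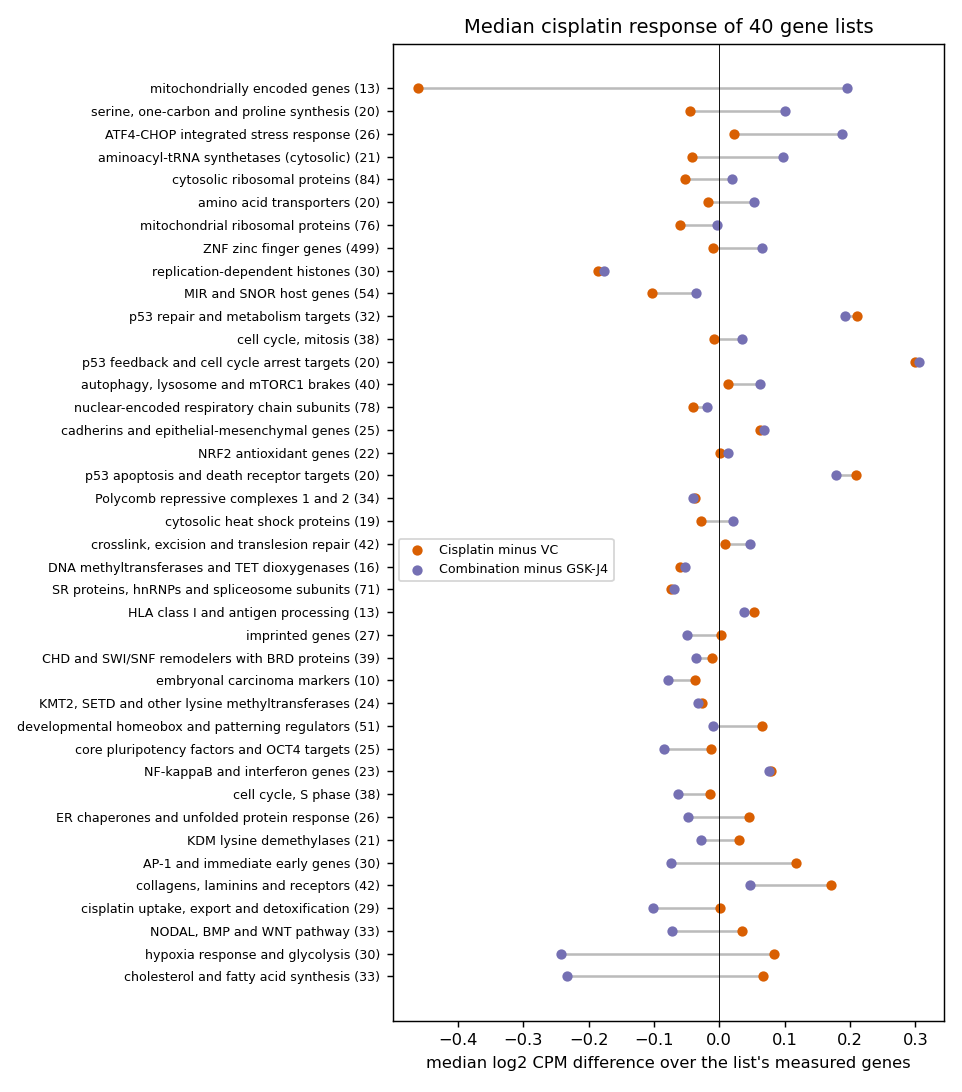
Median response to cisplatin (horizontal axis, log2 CPM difference) of each gene list of 10 or more measured genes, with 1 point for Cisplatin minus VC and 1 for Combination minus GSK-J4, joined by a line and ordered by the median interaction. The points are furthest apart for the mitochondrially encoded genes (-0.46 and 0.20), followed by the hypoxia list (0.08 and -0.24) and the lipid list (0.07 and -0.23), and close together for the p53 lists.

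An independent choice of cisplatin-responsive genes came from the vector control of the knockdown experiment, whose libraries are not shared with this one. In 2102EP-C1 cells carrying the empty pLKO.1 vector, cisplatin called 417 genes up (2.53% of those tested) and 76 down (0.462%). Of the 417, 398 were measured here, and their median response was 0.33 without pretreatment and 0.24 after GSK-J4. The response was positive for 86.7% and 82.2% of them, against 49.3% and 51.9% of all genes. The median interaction of these genes was -0.06, with 2 of the 398 called positive and 8 negative. Of all 16104 genes measured in both experiments, 32 were called positive and 112 negative. Of the 76 genes, 69 were measured here, with median responses of -0.19 and -0.07 and a median interaction of 0.09.

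The interaction was also set beside those of the other 2 experiments of the series, which share no library with this one. In 2102EP-C1 cells with double knockdown of KDM6A and KDM6B by shRNA (sh6A+6B) against pLKO.1, 81 of the 112 measured genes with a negative interaction under GSK-J4 had the same sign (72.3%, against 56.5% of all genes), and 10 were called with the same sign and 0 with the opposite one. The background there was 2.67% called negative and 1.09% called positive. Either direction together came to 3.77%. Among those called in both were FBN2 at -0.57 (limma adjusted p 8.7e-11) and TTN at -1.47 (1.9e-14). The knockdown interaction was not fitted with the trend on transcript length and GC content removed, a setting in which TTN lost its call under GSK-J4. FASN, at -0.36 (1.1e-07), was under the limit on fold. The 33 lipid genes ranged there from -0.36 to 0.34 (median -0.00), with 17 negative and 16 positive.

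The mitochondrial transcripts went the other way. With the empty vector, cisplatin gave positive values for each of the 13 protein-coding genes, 0.20 to 0.49 (median 0.26, 1 called up), and with sh6A+6B negative values for each, with a median of -0.14. The interaction had a median of -0.40 (-0.50 to -0.32), with 8 of 13 called negative. Thus cisplatin alone gave values of opposite sign for these transcripts in the 2 sets of unpretreated 2102EP-C1 libraries, those of VC cells and those of pLKO.1 cells. That difference was not tested. SLC7A11 was also opposite, at 0.45 with GSK-J4 and -0.46 with knockdown (adjusted p 3.7e-08). Of the 32 genes with a positive interaction under GSK-J4 that were measured there, 8 had the same sign, 0 were called with the same sign, and 11 were called with the opposite one, 9 of them mitochondrial.

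In NT2/D1-A4 cells GSK-J4 and cisplatin gave 7 interaction calls (0.0426% of those tested). Cisplatin alone had a negative value for each of the 13 mitochondrial genes, with a median of -0.41, but none was called (limma adjusted p 0.0687 to 0.331, unadjusted p below 0.05 for 8), against 0.396% of all genes called down. After GSK-J4 the median remained negative at -0.35, and the median interaction was 0.09 with 0 called and an unadjusted p below 0.05 in limma for 1. The lipid and hypoxia lists had median interactions of -0.02 and -0.00 in NT2/D1-A4 and of -0.00 and -0.02 with knockdown. For the 105 genes with a negative interaction in 2102EP-C1 that were measured in NT2/D1-A4, 61 had the same sign (58.1%), against 52.9% of all genes, and 0 were called.

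**Figure D5:**
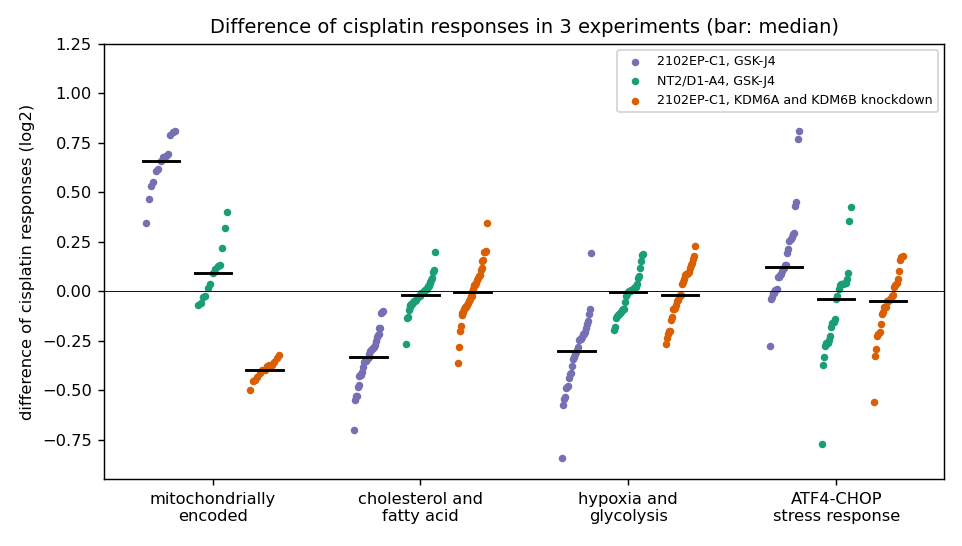
Difference between the 2 cisplatin responses (vertical axis, log2) in the GSK-J4 experiment of 2102EP-C1, the GSK-J4 experiment of NT2/D1-A4 and the knockdown experiment, with 1 point per gene of 4 lists and a bar at the median. The mitochondrial medians are 0.66, 0.09 and -0.40, and the lipid medians are -0.33, -0.02 and -0.00.

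The genes with a negative interaction had a median GC content of 56.0%, against 47.8% for all nuclear genes, and a median transcript length of 4062 against 3720 bases. The share with a gene span over 200 kb was 7.08%, against 7.56% of nuclear genes. With a trend on transcript length and GC content removed, 95 genes were called negative and 24 positive, and 90 of these 119 were among the 146. The part of GC content in the interaction was not tested beyond this.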

How the data were processed

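RNA-seq was analysed in 12 libraries of 2102EP-C1 cells in 4 arms of 3, with 24 libraries of the other experiments of the series for comparison. Per the study's methods and the submitters' processing notes, poly(A) libraries were made with a stranded kit, reads were trimmed, aligned with STAR to GRCh38.p14 and counted per gene with featureCounts. The deposited values are log2 CPM made by the authors with TMM scaling and a prior count of 3, after genes of low count were removed. The tool versions and the strand setting of the counting are not given in the sources used here.

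Limma 3.58.1 (R 4.3.3) with an intensity trend was fitted over the 12 libraries and all 17035 genes, with two-sided moderated tests and Benjamini-Hochberg adjustment. Whole reads were recovered from the deposited values (100% of 44541 values under 50 reads lay within 0.05 of a whole number) and tested with limma voom, which called 130 genes. On simulated data of 17035 genes for this interaction, 82 of 100 genes changed 1.5-fold and 100 of 100 changed 2-fold were called, with 7 unchanged genes called. The simulation gave each gene and library the same dispersion of 0.004, and its changed genes averaged over 100 reads. It held no deviating library, so these rates need not hold for the measured libraries or for genes of low level.

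The labels number the replicates 1 to 3 in each arm but do not say that they are separate cultures, so that p-values measure the spread between these libraries, which may be technical. Deviations of libraries with the same number correlated at -0.125 to 0.100, and the numbers were not taken as pairs. Replicate variance was at least 1.46 times counting noise, so that no library appeared to be deposited more than once.

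Genes were named by a rule: the 10 largest positive and negative calls with a mean of at least 1 CPM, the 4 smallest adjusted p in each class and direction, up to 4 called members of each list, and genes the study names, with some of these genes not reported here. Genes named outside the rule, among them HMGCS1, INSIG1, BNIP3 and ALDOC, were chosen after their values were seen. The genes, lists and motifs were chosen with earlier results of these data known. Promoters are RefSeq sequence on GRCh38.p14, in windows of 300 bases.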

Additional observations from a re-analysis of the deposited data

Results flagged for a closer look

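The interaction itself is a difference between groups: 146 genes had a cisplatin response that differed between cells with and without GSK-J4 by the limma test of the interaction. The other flagged result is the sign of the interaction for the 13 mitochondrially encoded mRNAs, whose median was 0.66 with GSK-J4 and -0.40 with knockdown of KDM6A and KDM6B. Each of the 13 was positive in the first experiment and negative in the second, and the difference between the experiments was not tested.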

How the results depend on the processing

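Counts of calls depended on the variance model and on single libraries more than on scaling. Interaction calls numbered 146, and 150 with scaling to library size only, 146 with a prior count of 0.5, 133 with a mean above 1 and 130 with voom. The replicate numbers did not pair the libraries, and with the replicate number as a replicate block 129 genes were called, 127 of them shared, with CER1, LOC105376166, SETDB2 and SUSD3 lost among the named genes. Leaving out 1 library gave 59 to 447 interaction calls, 117 to 211 for cisplatin alone and 164 to 725 after GSK-J4, and 15 to 40 lost, 17 to 219 gained and 21 to 185 genes in neither class. With no intensity trend, the interaction, lost, gained and neither counts were each 0, and 113 and 237 genes were called for the 2 responses. With no fold limit 405, 695 and 2682 were called for the interaction, cisplatin alone and after GSK-J4, and with fold over 1.2 and adjusted p under 0.001, 23, 110 and 232. An alternative chosen after seeing the data left out the first Combination and the third GSK-J4 libraries together and gave 358 interaction calls, 111 shared, with 49 lost, 166 gained and 142 in neither class. Among the named genes, CEBPG, LGR6, SETDB2, SLC38A1, TTN, ZNF527 and ZNF582 lost their call with length and GC trend removed, and PTPN5 as well when the block was added. The cause of these differences was not tested.

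Sign changes were limited to genes that were not called. With length and GC trend removed, with or without the block, ANXA1 was at -0.0221, CDKN1A 0.0136, DRAM1 -0.0289, KDM6B 0.0664 and SESN1 -0.0394. With the 2 libraries left out together, ANXA1 was at -0.0207, BTG2 -0.0285 and DRAM1 -0.0298. Leaving out 1 library gave -0.0552 to 0.1717 for ANXA1, -0.0362 to 0.0656 for DRAM1, -0.0001 to 0.13 for FAS and -0.0108 to 0.0408 for SESN1.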
